A study of Homo sapiens with 8 samples.

Results

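Clonal lines of the human pancreatic cancer cell line CFPAC1 that carried a guide RNA against IRF1 were compared with control clones after 2 hours with hIFNb, taken here to mean human interferon beta. The measure was acetylation of histone H3 at lysine 27 (H3K27ac), by chromatin immunoprecipitation and sequencing. The comparison used 4 of the 8 libraries of the series and all 31961 peaks of its peak table, and its groups were defined by the labelled clone and treatment. All clones came from cells infected with the lentiCRISPRv2 plasmid and were isolated by dilution. Control clones 1 and 4 have no guide named in their labels, and IRF1-guide clones 11 and 13 are labelled with wild-type Cas9 and a guide to IRF1. Each clone gave 1 untreated library and 1 library after hIFNb, so each of the 4 groups held 2 libraries. The labels do not say whether a clone lacks IRF1 protein. Since each library is 1 clone, the effect of the guide and the chance differences between single-cell clones cannot be told apart beyond the spread of 2 clones a side.

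IRF1 is a transcription factor that binds repeats of GAAA, the core of interferon-stimulated response elements. Type I interferon signals through JAK kinases to transcription factor complexes that bind the same kind of element and raise transcription of antiviral genes, and IRF1 is itself an early target. H3K27ac lies on nucleosomes at active enhancers and promoters, so its local level is read as a measure of how active such an element is.

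The promoter sequences of 4 genes whose peaks were lower in the IRF1-guide clones after hIFNb are shown first, because each holds a form of this element and lies inside its own peak. They come from RefSeq on GRCh38.p14, run 5′ to 3′ on the strand of the gene, and end 30 bases after the start site. Capitals mark each match to GAAANNGAA or to its reverse, TTCNNTTTC. GBP4 is at chr1:89198913-89199192 on the minus strand, with the match starting at -3 from the transcription start site (TSS). IL18BP is at chr11:71999367-71999646 on the plus strand, with the match at -67. CXCL10 is at chr4:76023468-76023747 on the minus strand, with the match at -221. CD38, chosen after its values were seen, is at chr4:15778078-15778357 on the plus strand, with the match at -17.
GBP4: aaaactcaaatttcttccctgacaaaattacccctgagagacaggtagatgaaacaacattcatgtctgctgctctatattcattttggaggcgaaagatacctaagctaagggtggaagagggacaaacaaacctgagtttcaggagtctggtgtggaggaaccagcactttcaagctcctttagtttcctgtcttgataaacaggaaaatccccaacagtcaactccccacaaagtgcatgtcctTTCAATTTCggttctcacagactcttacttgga
IL18BP: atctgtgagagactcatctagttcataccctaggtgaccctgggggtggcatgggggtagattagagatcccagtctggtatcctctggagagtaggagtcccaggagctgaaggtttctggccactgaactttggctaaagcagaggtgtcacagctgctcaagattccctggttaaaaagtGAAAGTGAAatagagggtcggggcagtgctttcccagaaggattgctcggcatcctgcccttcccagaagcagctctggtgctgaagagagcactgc
CXCL10: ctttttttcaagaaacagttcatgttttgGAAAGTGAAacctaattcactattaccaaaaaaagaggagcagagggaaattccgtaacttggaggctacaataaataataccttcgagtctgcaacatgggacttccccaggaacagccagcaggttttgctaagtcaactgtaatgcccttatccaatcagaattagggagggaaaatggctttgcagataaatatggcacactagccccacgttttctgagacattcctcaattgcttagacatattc
CD38: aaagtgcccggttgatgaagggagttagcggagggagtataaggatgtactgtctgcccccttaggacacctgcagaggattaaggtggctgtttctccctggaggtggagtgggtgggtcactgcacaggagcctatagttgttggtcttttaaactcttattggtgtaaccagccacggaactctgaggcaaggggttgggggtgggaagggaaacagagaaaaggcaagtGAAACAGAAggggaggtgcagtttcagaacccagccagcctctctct

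Matches to these letters, searched on both strands with overlaps allowed, were present in 8.11% of all 35116 RefSeq promoter windows (250 bases before to 50 after a start site). Among the windows at promoter peaks, 769 of 10877 held one (7.07%). At the promoter peaks that were lower in the IRF1-guide clones, 12 of 64 windows, from 52 genes with an entry, held one (18.8%), and at those that were higher 0 of 10 did. The 12 belonged to BCL2L14, CD38, CDKL1, CXCL10, FRMD3, GBP4, GRM8, HIP1R, IL18BP, LRRC31, RPS6KA2 and SLFN12L. These counts describe letters in a window, not bound sites, and 64 windows are few. The other windows of IL18BP at its peak held no match. Some windows lie outside their peaks, such as those of GRM8 and FRMD3 with a match and of CYP19A1, IGIP and F12 without one. The counts therefore do not measure the letters of the acetylated regions.

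Values are scores, the deposited normalised counts per peak. Their totals ran from 3277561 to 3317881 in IRF1-guide libraries and from 3408527 to 3460390 in control libraries. Every IRF1-guide total thus lay below every control total. The reads in peaks behind the hIFNb libraries were estimated from gaps in the whole-number scores at 2.48 to 3.08 M. The epithelial identity of the line was visible in all libraries. The broad region of KRT19, a ductal keratin, also holds the start sites of KRT13, KRT15 and KRT36. After hIFNb it scored 3997 and 3534 in control clones 1 and 4 and 3421 and 3135 in IRF1-guide clones 11 and 13. EPCAM, an epithelial adhesion molecule, scored 120 and 129 against 122 and 117. Of 9 ductal markers 8 had a promoter peak and none of those differed by the test, with CFTR the exception without one. Markers of 16 of 26 genes of other cell types had linked peaks, 29 in all, and their summed score after hIFNb was 8443 and 7839 in control and 9111 and 9497 in IRF1-guide clones. Without hIFNb the same sum was 8744 and 9194 against 9668 and 10324, so it was higher in IRF1-guide clones in both states. Most of it lay in 1 broad peak over CELA3A, an acinar elastase gene (4766 and 4446 against 5505 and 5539 after hIFNb). Its part in the results was not tested.

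The IRF1 locus itself, a broad peak at chr5:132442197-132506408, scored 3003 and 2159 in control clones and 2265 and 2033 in IRF1-guide clones after hIFNb. The groups overlapped, and the log2 difference was -0.25 ± 0.21 (SE, limma, adjusted p = 0.62). H3K27ac over the locus does not measure IRF1 protein and does not check the edit.

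After hIFNb the IRF1-guide clones had less H3K27ac at many more peaks than they had more. Of 31961 peaks, limma called 700 lower (2.19%) and 76 higher (0.238%), 776 in all (2.43%), at a Benjamini-Hochberg adjusted p under 0.05. All 776 were without overlap between the groups, as were 24.2% of all peaks in the lower and 19.6% in the higher direction. The lower peaks had a median log2 difference of -2.05 and the higher ones of 1.69, while the median over all peaks was -0.01. The smallest adjusted p, 0.00287, belonged to an intronic peak of STX18, a gene of vesicle fusion at the endoplasmic reticulum, which was chosen after its values were seen. It scored 586 and 590 in control clones and 106 and 118 in IRF1-guide clones. In bulk chromatin, a lower score from fewer cells that carry the mark and one from less mark per cell cannot be told apart.

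The calls rested on both control clones. With control clone 1 after hIFNb left out no peak was called (smallest adjusted p = 0.0979), with control clone 4 left out none was (0.0558), with IRF1-guide clone 11 left out 159 were lower and 9 higher, and with clone 13 left out 128 and 2. The clone left alone in its group is then taken to vary like the other groups. Of 68 called peaks named by rule, 35 kept the call under each of 10 other settings that could test them and kept all libraries of the contrast. Among those that lost it under at least 1 were the peaks of GBP6, CXCL10 with CXCL11, CX3CL1, CD40, ELOVL3, ELOVL7, CTSE, HMGA2, SNAI1, ALDH1A1, GRM8, OR4C6, RHOU, GLI2 and NOTCH1. Of the named higher peaks, only those of ELMO1, ELP2, VAV3 and EIF4E2 kept the call under each of these settings.

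**Figure D1:**
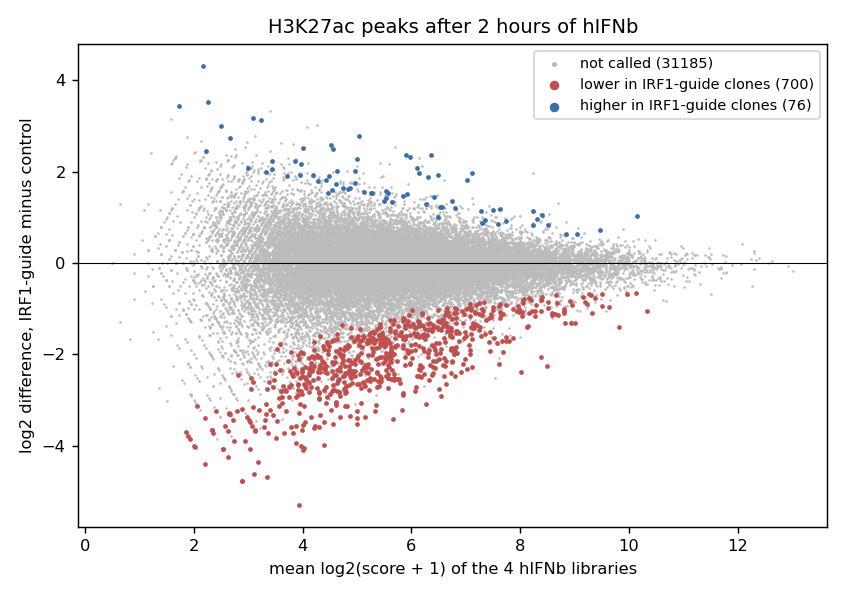
Each point is 1 of 31961 peaks: the x axis is the mean log2(score + 1) of the 4 libraries after hIFNb, the y axis the log2 difference of IRF1-guide minus control clones. The 700 lower peaks (red) reach a size of 5.29 and the 76 higher peaks (blue) one of 4.31, and grey points were not called.

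Most of the called peaks already leaned the same way without hIFNb. A smaller untreated difference is favoured in advance, since the peaks were chosen by the difference after hIFNb. The 700 lower peaks had median scores of 27.5 and 25 in untreated control clones 1 and 4 and 14 in each untreated IRF1-guide clone. After hIFNb their medians were 88 and 84 in control clones and 21 in each IRF1-guide clone. The control mean at least doubled with hIFNb at 491 of the 700, the IRF1-guide mean at 183, and at 193 the IRF1-guide mean was below its own untreated value. The 700 were chosen by these same hIFNb libraries, which favours such counts in advance, so the counts do not test a difference in response. The untreated log2 difference of the 700 had a median of -0.86. It pointed the same way in 649 (92.7%, against 68.5% of all peaks) and was without overlap in 540 (77.1%, against 22.5% of all peaks in that direction). The untreated libraries are other libraries of the same clones, so a lasting difference between clones enters both states.

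**Figure D2:**
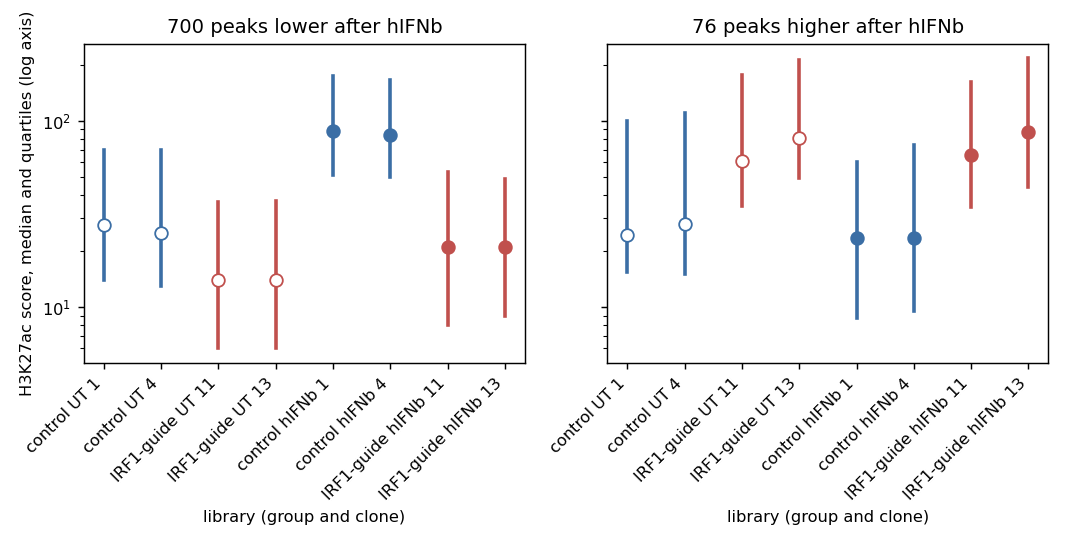
Median score (point) and quartiles (bar) of the called peaks in each of the 8 libraries, on a log axis, with open points for untreated and filled points for hIFNb. The control medians of the 700 lower peaks are 88 and 84 after hIFNb and those of the IRF1-guide clones 21, while at the 76 higher peaks the median of each clone is near its own untreated one and the control lower quartiles are 8.75 and 9.5 after hIFNb against 15.5 and 15 untreated.

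The untreated comparison on its own called 0 of 31961 peaks (0%, limma). There, 3851 peaks had an unadjusted p under 0.05, and the smallest adjusted p was 0.0532, at ELP2 and RHOU. The difference in response, which asks whether hIFNb moved the genotypes apart, also called 0 peaks (0%) with libraries taken as independent (limma, smallest adjusted p = 0.599). There, 1258 peaks had an unadjusted p under 0.05, a smaller share of all peaks than that threshold allows by chance. With the clone as a replicate block, so that each hIFNb library was set against the untreated one of its own clone, it called 210 lower (0.657%) and 34 higher (0.106%). Of the 700 lower peaks 118 were among the 210, and of the 76 higher peaks 4 were among the 34. A larger difference after hIFNb than before it was thus called at 122 of the 776 by the blocked fit and at 0 by the fit without the block. The 776 were chosen by the difference after hIFNb, which is part of the difference in response, so this overlap is favoured in advance.

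Guanylate-binding proteins (GBPs) and apolipoproteins L, interferon-induced families of cell-autonomous defence, had the largest share of calls among 18 gene lists. Of 15 peaks linked to 8 of the 13 list genes, 5 were lower and none higher, with a median log2 difference of -1.09 (over all peaks 2.19% were lower). At GBP4 (chr1:89197716-89203274, promoter), a large GTPase that acts against intracellular pathogens, control clones scored 57 and 42 untreated and 179 and 172 after hIFNb, and IRF1-guide clones 11 and 14 and then 21 and 28. The groups were far apart in both states, with a log2 difference after hIFNb of -2.80 ± 0.29 (SE, limma, adjusted p = 0.00606) and of -1.90 untreated (adjusted p = 0.0617). A peak 14703 bp from the GBP5 start, in the gap between GBP5 and GBP6, scored 33 and 28 and then 244 and 214 in control clones. In IRF1-guide clones it scored 13 and 17 and then 37 and 44, a log2 difference of -2.47 ± 0.27 after hIFNb (adjusted p = 0.00655). Its difference in response passed with the clone as a block (-1.49 ± 0.33, adjusted p = 0.0257). GBP6 at its promoter scored 225 and 228 in control and 95 and 74 in IRF1-guide clones (log2 difference -1.42, adjusted p = 0.028). APOL3, an intracellular member of the apolipoprotein L family, scored 214 and 211 against 58 and 59 in its body (-1.84, adjusted p = 0.0107). The differences in response at GBP4, GBP6 and APOL3 did not pass with the clone as a block (limma, adjusted p = 0.271, 0.253 and 0.35). The fifth call was a second peak nearest to GBP5, with 295 and 275 against 135 and 134. Promoters of GBP1 (445 and 404 against 176 and 225, adjusted p = 0.0548) and GBP5 (240 and 252 against 110 and 103, adjusted p = 0.0681) were also without overlap and did not pass. GBP genes are close paralogs, and how reads that map to several of them were placed is not given in the sources used here.

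Of 71 peaks of chemokine and cytokine genes 3 were called, all lower (4.23%, against 2.43% of all peaks), with a median of -0.10. The region over CXCL10 and CXCL11, which encode chemokines that draw activated T cells, scored 30 and 50 in untreated and 389 and 361 in treated control clones. The IRF1-guide clones had 25 and 17 and then 161 and 91. Both genotypes were thus higher with hIFNb than without it in each clone, and the treated groups differed by -1.62 ± 0.34 (SE, limma, adjusted p = 0.0371). The difference in response over this region did not pass with the clone as a block (-0.74, adjusted p = 0.263). IL18BP, a secreted decoy for interleukin 18, scored 22 and 19 and then 152 and 84 in control clones. In IRF1-guide clones its promoter scored 16 and 10 and then 18 and 20, so that the treated IRF1-guide libraries lay close to the untreated control level. The log2 difference after hIFNb was -2.51 ± 0.37 (adjusted p = 0.0111), and the difference in response passed with the clone as a block (-1.86, adjusted p = 0.0369). CX3CL1, a membrane-bound chemokine, had a smaller difference over a broad region that also overlaps CCL17 and CCL22. It scored 854 and 762 against 484 and 503 (-0.71 ± 0.15, adjusted p = 0.0408). Its untreated scores overlapped, at 478 and 518 against 421 and 480. CXCL9, a related chemokine, scored 154 and 180 against 95 and 33 and did not pass (adjusted p = 0.166). The NF-kB targets CXCL8 (1437 and 1306 against 1360 and 1272) and CXCL2 (752 and 591 against 836 and 669) overlapped between the groups.

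Of 89 peaks linked to 60 classical interferon-stimulated genes, 2 were lower and none higher, a share of 2.25% that is near the 2.43% of all peaks. Their median log2 difference was -0.10 after hIFNb and -0.49 without it. Of the 89, 56 had a log2 difference below 0 after hIFNb (51% over all peaks). Without overlap were 32 in the lower direction (24.2% over all peaks) and 9 in the higher (19.6% over all peaks). At MX1, a dynamin-like antiviral GTPase, untreated scores were 202 and 127 in control and 79 and 63 in IRF1-guide clones. After hIFNb they were 918 and 742 against 699 and 679, also without overlap. The log2 difference was -0.26 ± 0.24 and did not pass (SE, limma, adjusted p = 0.639). IFIT1, a sensor of foreign RNA caps whose peak also covers IFIT1B, scored 789 and 776 against 838 and 752 (0.02 ± 0.16, adjusted p = 0.966). The region of ISG15, a ubiquitin-like modifier, which also covers AGRN and HES4, scored 1083 and 986 against 1184 and 885 (adjusted p = 0.982). IRF9, a DNA-binding factor of the type I interferon response, scored 210 and 139 against 102 and 104 untreated and 372 and 302 against 346 and 333 after hIFNb. Its untreated groups did not overlap and its treated groups did, and the difference in response passed upward with the clone as a block (0.74 ± 0.18, adjusted p = 0.0414). The 2 calls were distal peaks. One lay 35951 bp from CMPK2, a mitochondrial nucleotide kinase gene (132 and 145 against 55 and 59, adjusted p = 0.0233), and the other 17326 bp from SAMD9L, an antiviral restriction factor gene (127 and 123 against 38 and 54, adjusted p = 0.0295). Neither difference in response passed with the clone as a block (limma, adjusted p = 0.0744 at CMPK2 and 0.281 at SAMD9L). The promoter that CMPK2 shares with RSAD2, the viperin gene, scored 387 and 396 against 268 and 282 (-0.51 ± 0.28, adjusted p = 0.403). MX1, IFIT1, RSAD2, GBP1, CXCL9, CXCL8 and CXCL2 were chosen as examples after their values were seen.

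**Figure D3:**
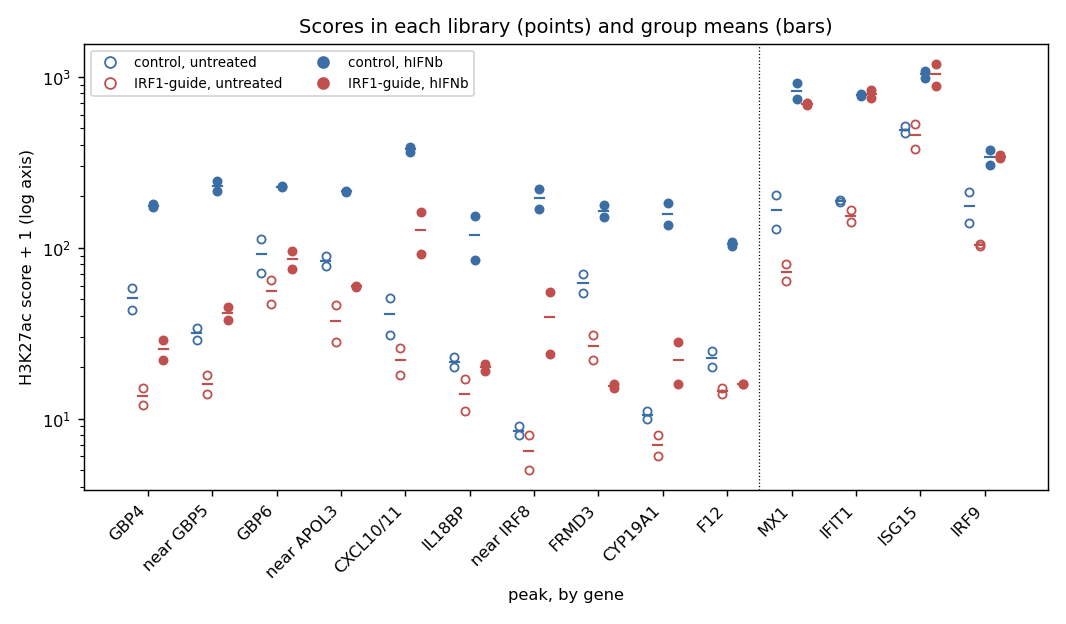
Scores of 14 peaks in each of the 8 libraries, plotted as score + 1 on a log axis, with open circles for untreated, filled circles for hIFNb and bars for the group mean. Left of the dotted line all 10 peaks passed the test, and the filled red circles lie below the filled blue ones, while right of it MX1, IFIT1, ISG15 and IRF9 did not pass.

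None of 54 peaks of antigen presentation genes was called, where 2.43% of all peaks were. Of the 54, 50 had a log2 difference below 0 (51% over all peaks) and 38 were without overlap in the lower direction (24.2% over all peaks), with a median of -0.34. Their untreated median was -0.46. The examples that follow were chosen after their values were seen. PSMB10, an immunoproteasome subunit, scored 200 and 151 against 85 and 95 (-0.94 ± 0.23, limma, adjusted p = 0.0631). The promoter shared by PSMB9, another such subunit, and TAP1, a peptide transporter, scored 407 and 295 against 217 and 193 (-0.76, adjusted p = 0.146). HLA-B scored 113 and 99 against 39 and 28 untreated and 307 and 250 against 225 and 139 after hIFNb (adjusted p = 0.282). CD74, the invariant chain of MHC class II, scored 228 and 225 against 128 and 59 with nearly the same scores untreated (215 and 225 against 106 and 67, adjusted p after hIFNb = 0.0639). B2M, the light chain of class I, overlapped at 275 and 287 against 273 and 264.

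Among genes of the interferon pathway itself, 1 of 66 peaks of the IRF, JAK and STAT list was lower and none higher (1.52%, against 2.43% of all peaks), with a median of -0.08. It lay 42347 bp from IRF8, an interferon regulatory factor of myeloid and B cells. It scored 8 and 7 in untreated control clones, 220 and 168 after hIFNb, and 7 and 4 and then 54 and 23 in IRF1-guide clones. All 4 clones were thus higher after hIFNb and the treated groups were apart by -2.41 ± 0.43 (SE, limma, adjusted p = 0.0209). This difference in response also passed with the clone as a block (adjusted p = 0.0303). SOCS1, a feedback inhibitor of JAK kinases, scored 291 and 204 against 152 and 120, and JAK2 scored 113 and 82 against 51 and 39. Neither passed (adjusted p = 0.135 and 0.0857). Of the type III interferons, IFNL1 (84 and 50 against 21 and 10), IFNL2 (163 and 87 against 59 and 38) and IFNL3 (177 and 88 against 62 and 39) showed no overlap after hIFNb and no call (adjusted p = 0.115, 0.261 and 0.21). None of the 6 peaks of that list was called, and its median was -1.32, against an untreated median of 0.49. SOCS1, JAK2 and the IFNL genes were chosen after their values were seen, and IFNL2 and IFNL3 are close copies.

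Promoters made up a small part of the calls. Of 9862 promoter peaks 63 were lower (0.64%) and 10 higher (0.1%), against 281 and 28 of 10968 peaks within 50 kb of a start (2.56% lower) and 356 and 38 of 11131 remote ones (3.2% lower). The largest named difference at a promoter was that of GRM8, a glutamate receptor gene, on low scores (39 and 21 against 1 and 1, log2 difference -3.89 with a pseudocount of 1 and -2.49 with one of 5). FRMD3, a FERM-domain protein gene, scored 69 and 53 against 30 and 21 untreated and 178 and 150 against 15 and 14 after hIFNb. The treated IRF1-guide libraries lay under their own untreated values, the log2 difference was -3.41 ± 0.29 (SE, limma, adjusted p = 0.00365, and -3.11 with a pseudocount of 5), and the response differed with the clone as a block (-2.17 ± 0.34, adjusted p = 0.00192). CYP19A1, the aromatase that makes estrogens, had a peak with 9 and 10 in untreated and 181 and 134 in treated control clones. The IRF1-guide clones had 5 and 7 and then 27 and 15 (-2.89 ± 0.38, adjusted p = 0.00866). The untreated groups were low, with a log2 difference of -0.60. F12, coagulation factor XII, scored 24 and 19 against 13 and 14 untreated and 107 and 102 against 15 and 15 after hIFNb (-2.72 ± 0.30, adjusted p = 0.00655). FGD2, an exchange factor for CDC42, scored 110 and 84 against 16 and 7, with overlapping untreated scores. Each of CYP19A1, F12 and FGD2 passed with the clone as a block (adjusted p = 0.0251, 0.0155 and 0.00652). TMEM236 and MCTP2 were without overlap in both states, and neither passed untreated (limma, adjusted p = 0.103 and 0.0645). MCTP2, a gene of membrane-bound calcium sensors, scored 103 and 111 against 27 and 23 untreated and 199 and 168 against 58 and 28 after hIFNb. Its difference in response was -0.09. The other named lower promoter peaks belonged to IGIP, RBM11, CCSER1, OGFOD3, SFTPA2 and AQP12B, with log2 differences from -2.83 to -2.14. The IGIP peak lies in the body of PURA and the OGFOD3 peak in that of HEXD, and SFTPA2 and AQP12B have close copies.

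The promoter calls that follow lie outside the naming rule and were picked after their values were seen. CD38, an ectoenzyme that breaks down NAD, scored 205 and 216 against 129 and 188 untreated and 465 and 436 against 149 and 195 after hIFNb. The treated groups were far apart (-1.40 ± 0.22, limma, adjusted p = 0.013) and the response differed with the clone as a block (-0.96, adjusted p = 0.00535). ZBP1, a sensor of Z-form nucleic acid that can start necroptosis, scored 418 and 404 against 179 and 96 (-1.64 ± 0.30, adjusted p = 0.0209). GSDMB, a pore-forming gasdermin, scored 318 and 210 against 84 and 56 (-1.90 ± 0.32, adjusted p = 0.0152). ETV7, an ETS-family repressor, scored 213 and 183 against 44 and 48 after hIFNb and 41 and 33 against 8 and 11 before it. The ratio between genotypes at ETV7 was thus close in both states, with log2 differences of -2.08 and -1.86. TRAFD1, a feedback regulator of innate signalling, scored 340 and 267 against 140 and 120 (-1.21, adjusted p = 0.044).

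The sizes that follow rest on scores near 0 in the IRF1-guide clones and so on the pseudocount of 1. The 15 distinct genes with the largest lower difference and a control mean of 20 or more ran from -4.36 at PCNX1 to -3.56 at GRAMD1C, and 14 of their peaks were distal. With a pseudocount of 5 their order changed, with -2.83 at PCNX1, -2.50 at SPATA13, -2.15 at CD40, -2.85 at GRAMD1C and -3.06 at OR4C6. A peak 35551 bp from PCNX1, a pecanex-family gene, scored 1 and 2 against 2 and 3 untreated and 38 and 42 against 3 and 0 after hIFNb. Both IRF1-guide scores after hIFNb were 3 or less, with a difference in response of -4.86 ± 0.99 with the clone as a block (limma, adjusted p = 0.0149). A peak near GRAMD1C, a cholesterol transfer protein gene, behaved alike, with 7 and 10 against 7 and 11 untreated and 76 and 53 against 5 and 4 after hIFNb (blocked adjusted p = 0.00409). A peak 5270 bp from GCH1, the first enzyme of tetrahydrobiopterin synthesis, scored 74 and 60 against 3 and 7 (-3.58 ± 0.47, adjusted p = 0.00842). Its difference in response did not pass with the clone as a block (limma, adjusted p = 0.0565). CD40, a receptor of the TNF family, had a weak distal peak of 25 and 18 against 2 and 0 (adjusted p = 0.0469). Its call was lost with a pseudocount of 0.5 (adjusted p = 0.0854), with centring on the median (0.0543) or within chromosomes (0.0623), and with an estimated correlation within clone (adjusted p = 0.0543). OR4C6, an olfactory receptor gene, was of another kind, with 71 and 88 against 7 and 0 untreated and 56 and 77 against 7 and 1 after hIFNb. It was low in the IRF1-guide clones in both states, and hIFNb brought no rise in either control clone. The other 10 were SPATA13, RIMOC1, GRM8, KPNA5, PYDC2, AIPL1, GYG1, TNIK, RASGEF1B and PKIB. Among peaks over 50 kb from any protein-coding start, the largest difference lay at chr5:153349090-153355588, with 141 and 64 against 2 and 1 (-5.29 ± 0.91, adjusted p = 0.0176, chosen after its values were seen).

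Metabolic gene lists, which bear on the series title, had between 0% and 5.8% of their peaks called, against 2.43% of all peaks. None was called of 30 peaks of cholesterol synthesis (median 0.12), 46 of glycolysis (0.13), 57 of the tricarboxylic acid cycle and respiratory chain (0.07) or 56 of lipid transport and oxidation (0.20). In fatty acid and glycerolipid synthesis 4 of 69 peaks were lower and none higher (5.8%), with a median of -0.10. ACSL4, which activates arachidonic and other polyunsaturated fatty acids, scored 108 and 134 against 113 and 97 untreated and 234 and 260 against 99 and 88 after hIFNb at a peak in its body. Its untreated groups overlapped, its treated groups were apart by -1.39 ± 0.21 (SE, limma, adjusted p = 0.0113), and the response differed with the clone as a block (adjusted p = 0.00476). Peaks near ELOVL3 and in ELOVL7, elongases of long fatty acids, scored 235 and 214 against 70 and 36, and 216 and 145 against 45 and 34. LPIN1, a phosphatidate phosphatase, scored 172 and 88 against 31 and 32 in its body. The differences in response at ELOVL3, ELOVL7 and LPIN1 did not pass with the clone as a block (limma, adjusted p = 0.157, 0.27 and 0.389). Of 66 peaks of xenobiotic and retinoid metabolism 1 was higher, 29177 bp from ALDH1A1, a retinaldehyde dehydrogenase gene. It scored 151 and 123 against 173 and 182 untreated and 69 and 57 against 115 and 140 after hIFNb (1.01 ± 0.22, adjusted p = 0.0432), so both genotypes had lower scores with hIFNb.

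Lists of epithelial grade, of other cell types and of general functions had from 0% to 3.45% of their peaks called, against 2.43% of all peaks. Each share rests on few calls or none. Among low-grade epithelial genes 1 of 92 peaks was lower, near CTSE, a gastric-type aspartic protease gene (19 and 25 against 3 and 5). Among high-grade and mesenchymal genes 1 of 71 was lower, near HMGA2, a chromatin architectural factor (38 and 49 against 5 and 15). In the same list 1 was higher, a peak 48390 bp from SNAI1, a repressor of epithelial genes. It scored 59 and 66 against 109 and 139 untreated and 127 and 113 against 275 and 265 after hIFNb (1.17 ± 0.21, limma, adjusted p = 0.0209), so the genotypes were apart in both states. Of 29 peaks of other cell types 1 was lower, near GCG, the glucagon gene (72 and 59 against 14 and 10). No peak was called of 33 linked to AP-1 genes, 48 to cell cycle genes or 21 to housekeeping genes. GAPDH scored 239 and 221 against 255 and 285 (0.23 ± 0.18, adjusted p = 0.573) and ACTB 318 and 169 against 228 and 218 (-0.06 ± 0.28, adjusted p = 0.947).

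**Figure D4:**
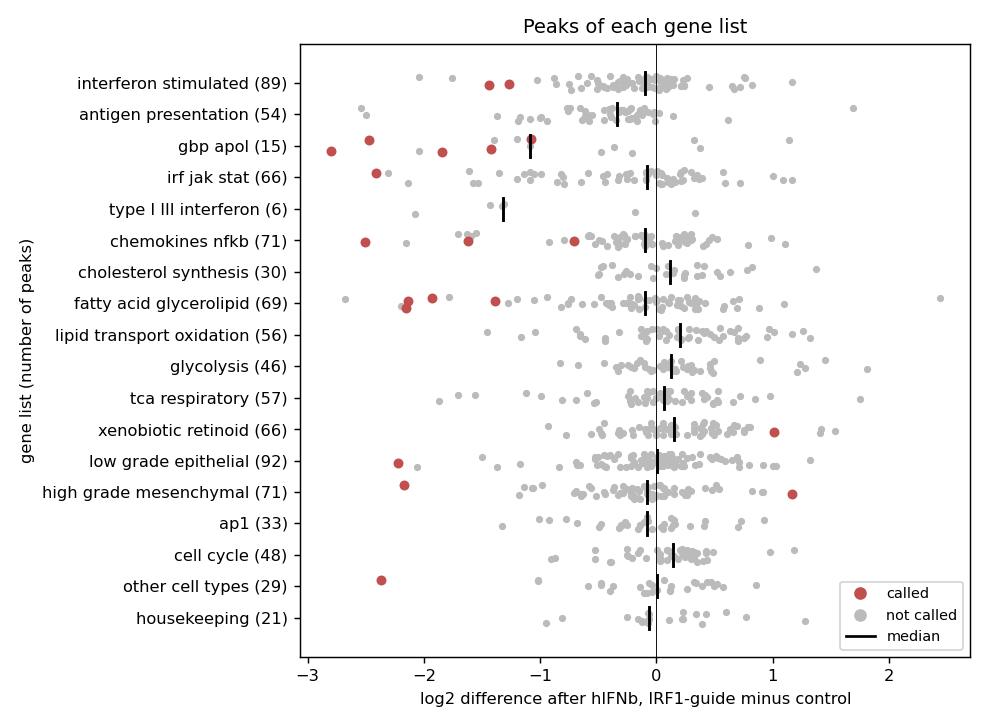
Each point is a peak linked to a gene of the named list, placed by its log2 difference after hIFNb, with red for called peaks, grey for the others and a black line for the median. The GBP and APOL list holds 5 red points and a median of -1.09, the antigen presentation list none and a median of -0.34, and the housekeeping list none and one of -0.06.

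The 76 peaks that were higher in IRF1-guide clones were mostly higher without hIFNb as well. Their untreated median was 1.00, and 75 pointed the same way, 67 of them without overlap (88.2%, against 18.1% of all peaks in that direction). Their median scores were 24.5 and 28 in untreated and 23.5 in both treated control clones, and 61 and 80.5 and then 65.5 and 87 in IRF1-guide clones. The control mean was below its untreated value at 55 of the 76, and the difference was larger after hIFNb than without it at 65. Both counts are favoured in advance, since the 76 were chosen by the difference after hIFNb. Of the 76, 4 passed for the difference in response in the same direction with the clone as a block. At VAV3, a guanine nucleotide exchange factor gene, the promoter scored 99 and 102 against 217 and 318 untreated and 33 and 38 against 137 and 252 after hIFNb. Every clone had less after hIFNb than before, and the control clones less than the others (2.36 ± 0.30, limma, adjusted p = 0.008; blocked difference in response 0.98, adjusted p = 0.0314). GLI2, a transcription factor of the hedgehog pathway, scored 36 and 65 against 156 and 274 untreated and 58 and 80 against 210 and 277 after hIFNb (1.81 ± 0.35, adjusted p = 0.0258). RHOU, a small GTPase gene, scored 578 and 405 against 1222 and 1294 and then 743 and 849 against 1714 and 1527. A peak in ELP2, a subunit of the Elongator complex, scored 22 and 29 against 117 and 152 untreated and 23 and 28 against 119 and 152 after hIFNb. At ELP2 the scores before and after hIFNb were thus nearly the same in each genotype. MCAM, an adhesion molecule, HSPG2, the perlecan gene, and a peak in CSPG4, another proteoglycan gene, were higher by 1.75, 0.72 and 1.89 on the log2 scale. Their calls were lost under 3, 3 and 1 of the other settings. NOTCH1, a receptor of cell fate signalling, had 26 and 17 against 34 and 37 in its body untreated and 7 and 10 against 44 and 27 after hIFNb. The other named higher peaks were near or in ELMO1, SERPINE2, EIF4E2, UGT2B11, ZNF774, PLXND1, NAV1, UPB1, HCN2, CIZ1, SCHIP1, BIRC7, ZBTB38 and SLC1A7, with log2 differences from 0.64 to 2.59.

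Called peaks were mostly scattered. The 776 fell into 699 single peaks, 34 runs of 2 neighbouring peaks and 3 runs of 3 called in the same direction, which lay in and around MAX, PARP8, and PANK2 with RNF24. MAX is the dimer partner of MYC. Its intronic peak at chr14:65080094-65085584 scored 11 and 11 against 8 and 16 untreated and 125 and 110 against 22 and 20 after hIFNb, while its promoter peak scored 107 and 104 against 41 and 33 and then 191 and 192 against 67 and 65. Peaks of 1 gene thus differed in whether the genotypes were apart before hIFNb. Among peaks of 20 kb or more, 30 of 1450 were lower (2.07%) and 8 higher.

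Whole chromosomes also differed slightly between clones. The median log2 difference after hIFNb ran from -0.19 on chromosome 20 to 0.16 on chromosome 1, and untreated it was -0.20 and 0.14 there. Clones of the same genotype differed by as much or more. Control clone 4 was lower than clone 1 on chromosome 7 by a median of -0.35 and higher on chromosome 1 by 0.31, and IRF1-guide clone 13 against clone 11 had -0.36 on chromosome 20 and 0.27 on chromosome 7. In 288 windows of 10 Mb the medians ran from -0.41 to 0.40, and the 13 beyond 0.3 in size all had the same sign without hIFNb. With each library centred within each chromosome, an alternative chosen after seeing the data, 624 peaks were lower and 123 higher, of which 590 and 65 were among the 700 and 76.

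**Figure D5:**
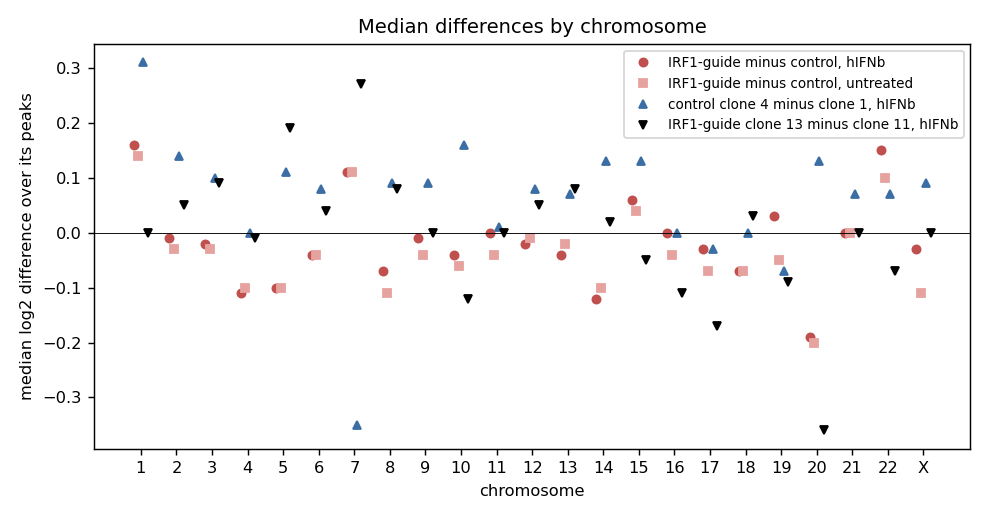
Median log2 difference over the peaks of each chromosome: IRF1-guide minus control clones after hIFNb (circles) and untreated (squares), and the pair of clones within each genotype after hIFNb (triangles). Circles and squares lie close together on each chromosome, and the triangles reach -0.35 on chromosome 7 and -0.36 on chromosome 20.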

How the data were processed

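H3K27ac libraries of 8 CFPAC1 samples were used, with groups taken from the labels. Alignment used Bowtie2 and GRCh38 (hg38), as named in the submitters' processing notes, with the peak caller, the read counter and the scaling not given in the sources used here. Each deposited score, 1 per peak and library, is a normalised count that the authors rounded to whole numbers. Its depth is unknown, and the estimates of reads in peaks come from whole numbers up to 100 that a library never uses.

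Scores were analysed as log2(score + 1) in limma 3.58.1 (R 4.3.3) with Python 3.11.15, as a group-means model of all 8 libraries with 4 residual degrees of freedom, a trend of variance with mean, and p-values adjusted by Benjamini-Hochberg over 31961 peaks. No peak was filtered out. The model was run on simulated data in which each library was drawn independently. That run does not show how the fit behaves where libraries of a clone correlate. Errors are standard errors, and p-values measure the spread between clones only. That spread was pooled over untreated and hIFNb libraries taken as independent, although each clone gave a library in both states. A single peak could not be tested by permutation, since 2 against 2 allows no p under 0.333. The clone numbers do not pair the clones compared, and the R1 or R2 column ending, which the labels do not explain, was tried as a term. Untreated and hIFNb libraries of a clone pair by its number, and their deviations from the group means correlated at 0.437 in control and 0.392 in IRF1-guide clones.

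Each peak was assigned the nearest protein-coding start site (TSS) within 50 kb and counted as a promoter peak if the TSS was inside or within 2 kb. Start sites came from RefSeq promoters for 15843 of 18538 genes and otherwise from the deposited table. This linked 20830 peaks to 11622 genes. A link is a distance only. The text names, 1 peak per gene, the 15 largest lower and 15 largest higher called peaks without overlap and with a mean score of 20 or more in the higher group, the same among promoter peaks, up to 5 called genes per list, and 7 genes always: IRF1, IRF9, ISG15, GAPDH, ACTB, KRT19 and EPCAM. The comparison, the rule and the 18 lists were chosen with earlier results of these data known.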

Additional observations from a re-analysis of the deposited data

How the results depend on the processing

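Against 700 lower and 76 higher peaks, the 4 hIFNb libraries alone gave 610 and 31, a pseudocount of 5 gave 1086 and 121, one of 0.5 gave 601 and 65, and a mean score of at least 20 left 470 and 49. Centring on the median gave 584 and 101, quantile normalisation 659 and 135, no trend 588 and 63, and an estimated correlation within clone (0.492) 845 and 141. Leaving out 1 hIFNb library gave 0 to 159 lower and 0 to 9 higher. The R1 or R2 ending of the column names as a term, chosen after seeing the data, gave 1471 and 433, and centring within chromosomes, also chosen then, 624 and 123. The column ending is not explained by the labels, and its pair correlations were 0.099 and 0.091. A minimum log2 difference of 1 left 662 and 66. No named peak changed direction. The untreated count of 0 ranged from 0 to 1 with 1 untreated library left out (1 without IRF1-guide clone 11), and the difference in response called 0 with each hIFNb library left out in turn and 244 with the clone as a replicate block. Of 68 called peaks that the text names by rule, 51 kept their call in the 4 hIFNb libraries alone and 47 without the trend. Scores are rounded, so peaks under about 20 rest on few reads, and 199 of the 700 had an IRF1-guide mean under 10. With 2 clones a side, no count separates the guide from clonal differences.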

Other observations

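Some called peaks near genes that the gene lists do not hold are given here as values, all chosen after they were seen. A peak of 22931 bp between PLLP and its neighbours on chromosome 16 scored 231 and 179 in untreated control clones and 130 and 193 in untreated IRF1-guide clones. After hIFNb it scored 745 and 626 against 181 and 146, and its difference in response with the clone as a block was -1.71 (limma, adjusted p = 8.01e-05). A peak 34505 bp from SPRY4, an inhibitor of receptor tyrosine kinase signalling, scored 34 and 54 against 39 and 47 and then 329 and 253 against 55 and 59 (blocked adjusted p = 0.000155). In BMPR1A, a receptor for bone morphogenetic proteins, a peak scored 5 and 2 against 8 and 9 and then 53 and 63 against 12 and 9 (blocked adjusted p = 0.00563).

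Peaks near NOS2, the inducible nitric oxide synthase gene (251 and 141 against 60 and 31), near ESR1, an estrogen receptor gene (83 and 105 against 21 and 22), in GREB1, an estrogen-regulated gene (84 and 89 against 14 and 12), and in IL7R, the interleukin 7 receptor gene (226 and 303 against 57 and 37), were also lower after hIFNb. In IL7R the untreated scores were already apart, at 101 and 189 against 38 and 26. At a remote peak on chromosome 9 (8364395 to 8365946) both control clones were listed at 0 after hIFNb and at 1 without it, while the IRF1-guide clones scored 17 and 21 with hIFNb and 23 and 20 without.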
